A study of Homo sapiens with 6 samples.

Results

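The genes described here are the inhibitors of cyclin-dependent kinases (CDKs) of the CIP/KIP family (CDKN1A, CDKN1B and CDKN1C) and of the INK4 family (CDKN2A, CDKN2B, CDKN2C and CDKN2D), together with MTAP, which lies beside CDKN2A on the short arm of chromosome 9 in the band known as 9p21. They were chosen by name, and each was read from the row of the array table that carried its symbol alone, taking the row with the highest mean where there were several. Of the 8 genes, 7 had such a row, among 22411 named genes tested, and CDKN2C is not analysed here. U87 is an established human glioblastoma line. Its treated group held 3 arrays, from cells exposed to 1 mM of an amino acid that bears a carborane (a cage of boron, carbon and hydrogen) over 48 h, and the sources used here give the compound no other name. The control group held 3 arrays of U87 cells with no treatment, and the labels name no vehicle. Both groups shared a growth period of 48 h beforehand, in EMEM medium that contained serum (10%) and pyruvate (1 mM). All 6 arrays come from this 1 line. The labels do not say that replicates were separate cultures, so the p-values reflect only how far these samples vary, which may be technical variation.

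CDKs drive a cell through its division cycle when bound to cyclins. INK4 proteins bind CDK4 and CDK6 and keep cyclin D from them, whereas CIP/KIP proteins bind the assembled cyclin and CDK complexes, above all those of CDK2. CDKN1A encodes p21, and CDKN1B encodes p27, which is controlled largely through destruction of its protein. CDKN2A encodes p16INK4A and, from a separate first exon and another reading frame, ARF, which restrains MDM2. MTAP recycles the methylthioadenosine left over from polyamine synthesis. Loss of the CDKN2A region is among the most frequent lesions of glioblastoma, and U87 is reported to lack CDKN2A. DNA copy number was not measured in these samples.

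The arrays gave log2 signals with medians of 6.06 to 6.10 over the genes tested. Across genes, which are not replicates, Pearson's correlation was 0.998 for arrays of a group and 0.959 to 0.963 for arrays of different groups, and no pair of arrays was identical. VIM, an intermediate filament gene of mesenchymal and glial cells, gave 15.94 to 15.99 in treated and 16.64 to 16.71 in control cells, while the astrocyte gene S100B was at background in both groups and GFAP lay close to the background limit, at means of 5.43 in treated and 5.54 in control cells. Of 11 astroglial and glioma markers, 3 rose, 4 fell and 4 were not called. Log2 changes were 0.44 for CD44, 0.37 for OLIG2, 0.12 for EGFR, -1.89 for NES, -1.86 for SOX9, -0.97 for SLC1A3 and -0.70 for VIM. OLIG2 was at background in control cells (mean 5.25) and at the limit in treated cells (mean 5.62). SOX2 and AQP4, like S100B, were at background in both groups. Of the immune markers 4 of 4 were at background in both groups, as were 3 of 3 endothelial, 3 of 3 epithelial and 3 of 3 oligodendrocyte markers. Of 3 neuron markers, RBFOX3 was at background, SNAP25 was lower and SYT1 higher after treatment, and the part of these markers in the results below was not tested.

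Background was set from 366 olfactory receptor genes, a family not expected in these cells. A gene was taken as at background in a group where its mean lay below the 95th percentile of those genes, which was 5.62 in treated and 5.52 in control cells. Signals below this limit are not evidence that a gene was silent, and the table used holds no detection call.

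The members split into a pair of clearly measured CIP/KIP genes that rose, 1 INK4 gene a little above background that was lower, and 4 genes at background in both groups. CDKN1A rose about 2-fold and CDKN1B by a much smaller amount, CDKN2D fell slightly, and CDKN1C, CDKN2A, CDKN2B and MTAP did not pass the test. The test was a limma fit over all genes tested, and genes with an adjusted p (Benjamini-Hochberg) under 0.05 are termed called. At this threshold 45.6% of all genes were called, 24.0% higher and 21.6% lower, so the 2 higher and 1 lower calls among 7 members are near the share of all genes and are no result about the family. Of the genes above background in at least 1 group, 69.5% were called, and the 3 such members were among them. The members' median log2 change was -0.04, against 0.01 for all genes tested. Of all genes, 53.5% had treated and control values that did not overlap, 27.7% with treated above and 25.8% with treated below, and among the members this held for CDKN1A, CDKN1B and CDKN2D.

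**Figure D1:**
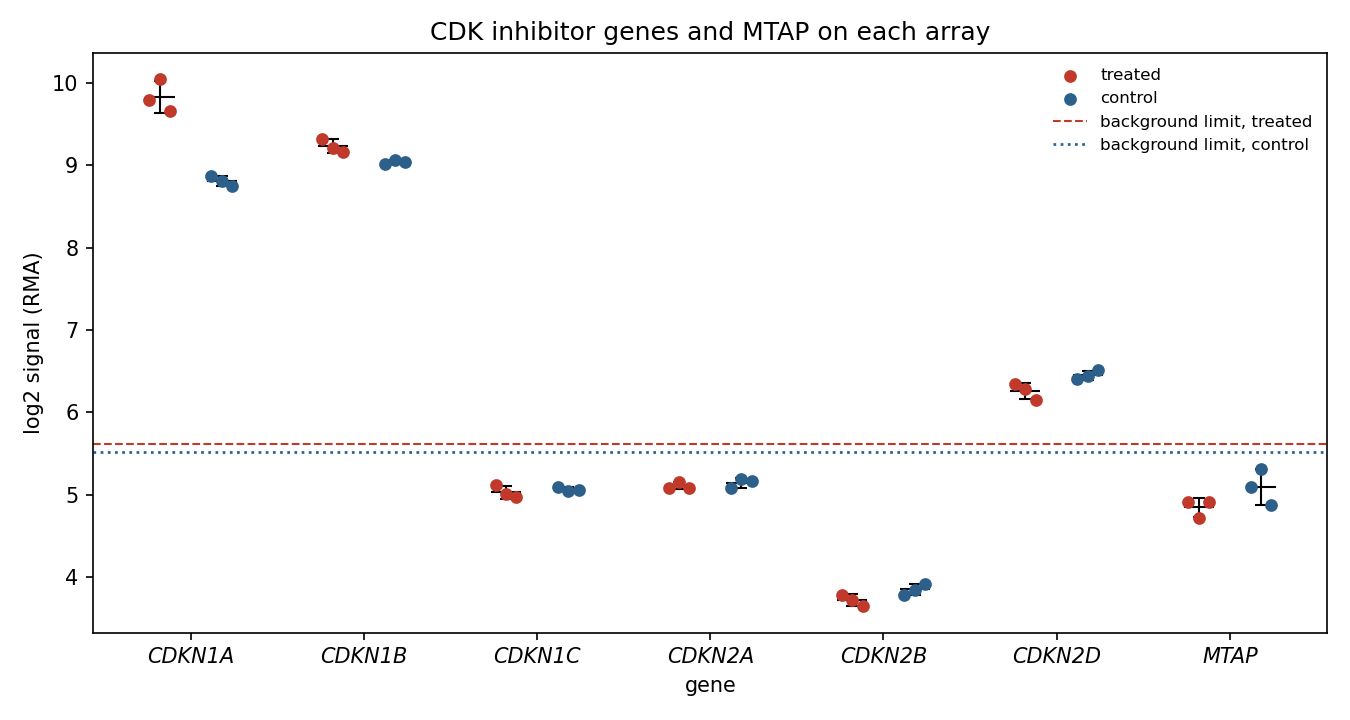
Log2 signal of the 7 measured genes on each array, treated (left of each pair) and control (right), with points for arrays and black marks for the group mean and SD (n = 3). The dashed and dotted lines are the background limits of 5.62 in treated and 5.52 in control cells. CDKN1A, CDKN1B and CDKN2D lie above the limits, and CDKN1C, CDKN2A, CDKN2B and MTAP below them.

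CDKN1A, which encodes p21, the inhibitor that halts CDK2 and also binds the replication clamp PCNA, had signals of 9.79, 10.04 and 9.66 in treated cells and 8.87, 8.81 and 8.75 in control cells. Every treated array lay above every control array, and treated arrays were more spread (SD 0.19) than control arrays (SD 0.06). The log2 change was 1.02 (SE 0.10, 95% interval 0.79 to 1.25, adjusted p = 1.02e-04 by limma), or 2.03-fold with an interval of 1.73 to 2.38. Of all genes tested, 4.78% had a larger rise. The rise was called under all 15 other settings tried, at log2 changes of 0.84 to 1.11 and adjusted p-values of 3.22e-05 to 8.17e-04 (limma). Not all of these could have changed the call. Scaling all values down to a highest value of 16 gave the 0.84 and cannot alter an adjusted p. CDKN1A has no second row, so averaging a gene's rows left its values the same.

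CDKN1B, which encodes p27, the inhibitor that holds resting cells out of the cycle, had signals of 9.32, 9.21 and 9.16 in treated cells and 9.01, 9.06 and 9.04 in control cells. The groups did not overlap, but the lowest treated array stood only slightly above the highest control array. The log2 change was 0.19 (SE 0.05, 95% interval 0.07 to 0.32, adjusted p = 0.0206 by limma), and 24.6% of all genes had a larger rise. The call was lost without control replicate 1 (log2 change 0.18, adjusted p = 0.0673 by limma) and without control replicate 3 (log2 change 0.20, adjusted p = 0.0561 by limma). It was also lost when all rows of the table were tested (adjusted p = 0.0717 by limma).

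CDKN2D, which encodes the INK4 inhibitor p19, had signals of 6.34, 6.28 and 6.15 in treated cells and 6.40, 6.44 and 6.51 in control cells. Treated arrays lay below control arrays, and both groups were within 1 log2 unit of the background limits. The log2 change was -0.19 (SE 0.06, 95% interval -0.34 to -0.05, adjusted p = 0.0386 by limma). This call did not hold without treated replicate 2 (adjusted p = 0.0729), without treated replicate 3 (adjusted p = 0.0912), or without control replicate 1, 2 or 3 (adjusted p = 0.0543, 0.0861 and 0.120, all by limma). It was also lost when arrays were centred on their medians (log2 change -0.17, adjusted p = 0.0731) or quantile-normalized again (log2 change -0.15, adjusted p = 0.101), and when all rows were tested (adjusted p = 0.103), whereas the direction stayed the same in each of these fits.

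The sequences before the starts of the 3 called genes are shown because these genes moved in opposite directions, and they let the start regions be read side by side. The set of RefSeq (GRCh38.p14) start regions used here covered 6 of the 7 measured members and held none for CDKN1C. Each line gives the 250 bases before the annotated start, 5′ to 3′ on the gene's own strand, at chr6:36678464-36678713 (plus strand) for CDKN1A, chr12:12717118-12717367 (plus strand) for CDKN1B and chr19:10568980-10569229 (minus strand) for CDKN2D. Capitals mark matches on either strand to GGGCGG (the GC box bound by SP1), CCAAT or CAGCTG (an E-box).
CDKN1A: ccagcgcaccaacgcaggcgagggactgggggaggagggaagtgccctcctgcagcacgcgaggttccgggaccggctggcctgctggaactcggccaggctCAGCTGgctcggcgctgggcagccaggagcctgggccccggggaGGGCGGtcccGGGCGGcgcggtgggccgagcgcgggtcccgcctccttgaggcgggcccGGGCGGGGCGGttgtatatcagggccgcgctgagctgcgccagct
CDKN1B: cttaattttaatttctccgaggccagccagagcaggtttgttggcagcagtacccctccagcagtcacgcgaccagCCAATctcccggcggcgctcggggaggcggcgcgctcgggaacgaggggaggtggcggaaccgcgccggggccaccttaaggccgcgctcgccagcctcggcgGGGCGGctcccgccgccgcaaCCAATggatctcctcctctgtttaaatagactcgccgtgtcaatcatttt
CDKN2D: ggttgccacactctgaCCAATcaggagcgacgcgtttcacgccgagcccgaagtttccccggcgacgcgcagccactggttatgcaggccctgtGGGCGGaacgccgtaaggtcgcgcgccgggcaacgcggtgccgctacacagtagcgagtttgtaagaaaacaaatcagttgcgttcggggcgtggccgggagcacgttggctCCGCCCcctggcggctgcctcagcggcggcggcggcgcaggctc
The CDKN1A region held 4 GC boxes, of which the last 2 share 1 base, with 1 CAGCTG and 0 CCAAT, and 76.4% of its bases were G or C. The CDKN1B region held 1 GC box and 2 CCAAT matches at 64.4% G or C, and the CDKN2D region held 2 GC boxes and 1 CCAAT match at 67.6%. None of the 3 windows held TATAAA. Among 35116 RefSeq start regions of the same length, 42.6% held GGGCGG, 32.0% CCAAT, 14% CAGCTG and 10.7% TATAAA. A match is a description of letters and not evidence of binding.

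CDKN1C, which encodes p57, an imprinted CIP/KIP inhibitor of development, was at background, with signals of 5.12, 5.01 and 4.97 in treated cells and 5.10, 5.05 and 5.06 in control cells. The treated values spanned the control values. Its log2 change was -0.04 (95% interval -0.16 to 0.09, adjusted p = 0.617 by limma).

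CDKN2A had signals of 5.09, 5.16 and 5.09 in treated cells and 5.08, 5.19 and 5.17 in control cells. The groups overlapped, at a log2 change of -0.03 (95% interval -0.15 to 0.08, adjusted p = 0.627 by limma). The array table has 1 row for the gene, so p16INK4A and ARF transcripts, which start at separate places in RefSeq, cannot be told apart. CDKN2B, whose product p15 is an INK4 inhibitor known to respond to TGF-beta, had signals of 3.79, 3.73 and 3.65 in treated cells and 3.79, 3.85 and 3.92 in control cells. The groups touched at 3.79, and the log2 change was -0.13 (95% interval -0.26 to 0.00, adjusted p = 0.105 by limma).

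MTAP had signals of 4.92, 4.72 and 4.91 in treated cells and 5.10, 5.31 and 4.88 in control cells. Control replicate 3 lay within the treated range, and the log2 change was -0.25 (SE 0.11, 95% interval -0.52 to 0.02, adjusted p = 0.128 by limma). Without control replicate 3 the change was called at -0.36 (adjusted p = 0.0269 by limma). A second row of the gene gave 3.96, 4.16 and 4.15 in treated cells and 4.00, 3.97 and 3.91 in control cells. Its log2 change had the opposite sign, at 0.13 (adjusted p = 0.281 by limma over all rows), so the rows of MTAP disagree in direction and both are at background.

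**Figure D2:**
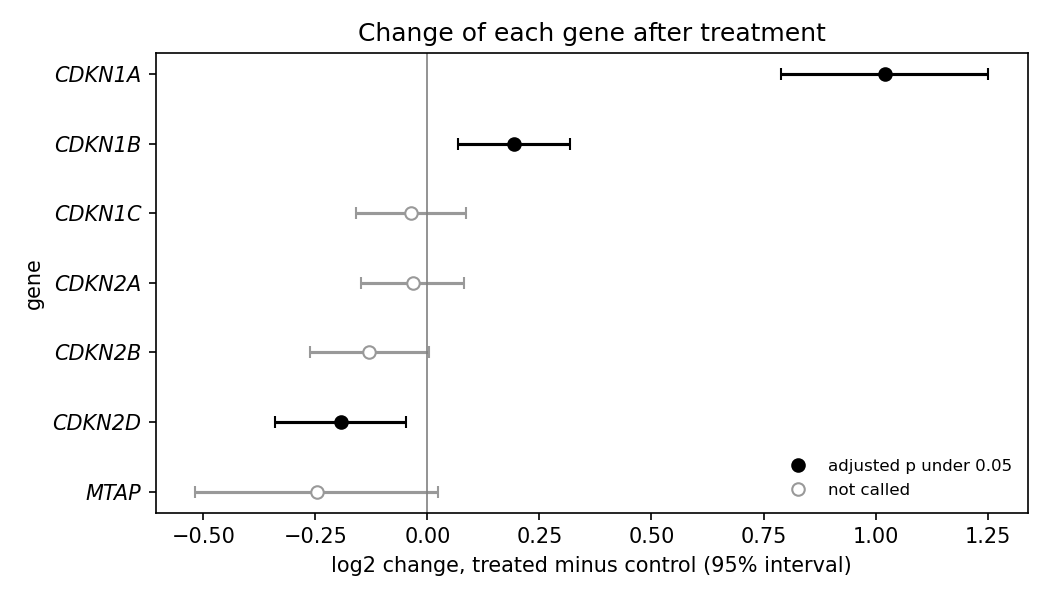
Log2 change (treated minus control) of each measured gene with its 95% interval from limma, n = 3 arrays a group. Filled points passed an adjusted p under 0.05, and open grey points did not. CDKN1A stands at 1.02, and the 6 other genes lie between -0.25 and 0.19.

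Within the treated group the arrays did not order the members evenly. Treated replicate 3 had the lowest treated value for 5 of 7 members, and treated replicate 1 the highest for 5 of 7. The medians of these arrays over all genes were 6.07 and 6.06. Control replicate 1 had the lowest control value for 4 of 7 members. Control replicates 1, 2 and 3 had the highest for 2, 3 and 2 members. Such orderings were not counted over all genes, and any part of them in the small changes of CDKN1B and CDKN2D was not tested.

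The genes most like CDKN1A over the 6 arrays, by Euclidean distance after each gene's own mean was removed, were TRIM45 (distance 0.18), TMEM38B (0.19) and DYNC2LI1 (0.19), with log2 changes of 1.06, 1.03 and 0.97. For CDKN2D they were ZNF480, PSMD4 and VPS9D1-AS1, each at a distance of 0.05, with log2 changes of -0.20 for each. With only 2 groups of arrays, this measure mostly ranks genes by the size of their change.

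CDKN2A, CDKN2B and MTAP sit in a long stretch of chromosome 9 in which every measured gene was at background in both groups. By the gene order of RefSeq GRCh38.p14, the stretch ran from MLLT3, a chromatin reader gene, to IZUMO3, and held 34 measured genes, 26 of them protein-coding. Array values in it spanned 3.04 to 5.16 in treated and 3.10 to 5.42 in control cells. Of the 34 genes, 17 belong to the type I interferon cluster, which many resting cells do not express. Of the other 17, 10 are protein-coding, and the rest are microRNA or long noncoding RNA genes. The 10 include the neuronal gene ELAVL2 as well as genes with wide expression in human tissues. One of the latter is FOCAD, a focal adhesion gene, at means of 4.49 in treated and 4.41 in control cells. KLHL9, which encodes an adaptor of a ubiquitin ligase, was at 4.09 in treated and 4.04 in control cells, and MLLT3 at 4.56 in treated and 4.44 in control cells.

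On the MLLT3 side the signal above background resumed with the next measured gene. This was SLC24A2, the gene of a sodium and calcium exchanger, with signals of 9.63, 9.52 and 9.58 in treated cells and 9.39, 9.23 and 9.34 in control cells. On the other side TUSC1 lay at the limit, at means of 5.55 in both groups, and CAAP1, which encodes an apoptosis regulator, gave 8.09, 8.03 and 7.96 in treated cells and 7.88, 7.98 and 8.08 in control cells. PLAA, a ubiquitin-binding protein gene next to CAAP1, averaged 10.08 in treated and 10.16 in control cells.

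Of all genes tested, 40.8% were at background in both groups. Among 4502 unbroken runs of such genes on the autosomes and chromosome X, the median length was 1 gene, and the run that holds CDKN2A was in place 2 by length, after a run from MIR519E to MIR519A2. Counting protein-coding genes alone it was in place 4 of 3222, and the 3 longer runs each began with an olfactory receptor gene. Since the limit was set from olfactory receptor genes, most of these lie below it by definition, so such runs are no independent yardstick. The length depends on the limit. With the array medians as the limit the run held 36 genes. With the 90th percentile of the olfactory receptor genes 30 of the 34 genes stayed below it, but CDKN2A, MTAP, MIR31 and ELAVL2 did not. The signals of a bulk culture cannot tell fewer cells expressing a gene from less RNA per cell, and the cause of the low signals was not tested.

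**Figure D3:**
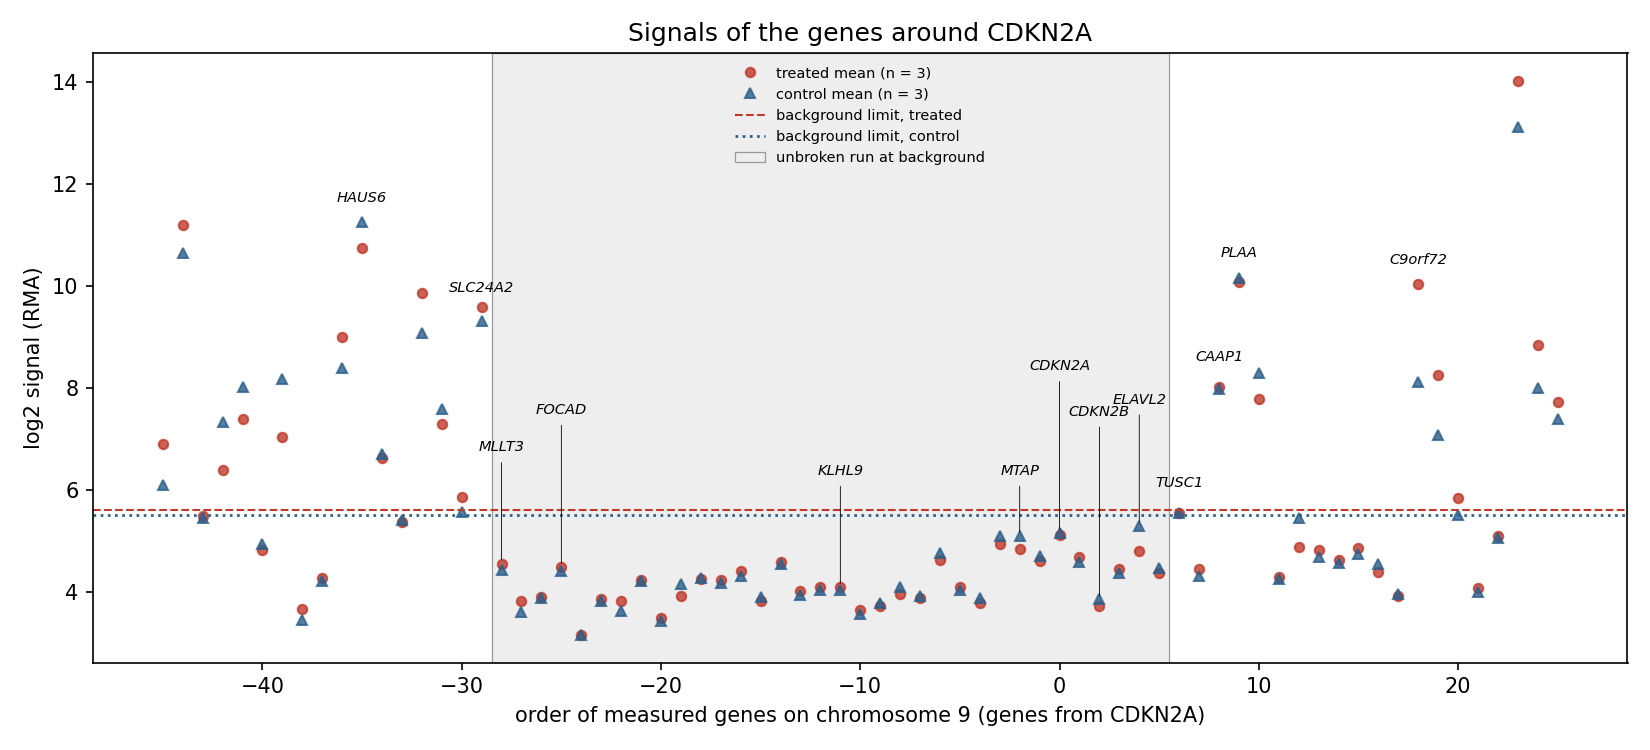
Mean log2 signal (n = 3) of measured genes in their order along chromosome 9, counted from CDKN2A, for treated (circles) and control (triangles) cells, with the background limits of 5.62 and 5.52. The shaded run from MLLT3 to IZUMO3 holds 34 genes, all below the limits, between SLC24A2 and TUSC1.

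In this stretch 3 of the 34 genes were called. Of all genes at background in both groups 10.8% were called, so the low count is no result about the stretch. The list of neighbours counted next is a different set, which leaves out CDKN2A, CDKN2B and MTAP and includes TUSC1. In the list of neighbours of the locus, 26 of 28 genes were measured, and 25 of these were at background in both groups. In the list 1 gene was called higher and 2 lower, with a median log2 change of 0.03, or 11.5% called, against 10.8% of all genes at background. ELAVL2, a neuronal RNA-binding protein gene at background in both groups, gave 4.83, 4.78 and 4.83 in treated cells and 5.18, 5.28 and 5.42 in control cells, a log2 change of -0.48 (SE 0.07; limma adjusted p = 7.30e-04). IFNA4 fell by 0.22 and IFNB1 rose by 0.21 on the log2 scale (adjusted p = 0.0147 and 0.0344 by limma). The single higher call was absent without treated replicate 2, control replicate 1 or control replicate 2, and only 1 lower call was left without control replicate 2. With all rows tested 0 were called higher and 1 lower, and with a trended, robust eBayes fit 0 were higher and 2 lower. The antisense RNA genes beside CDKN2A, CDKN2A-AS1 and CDKN2B-AS1, were not called, at log2 changes of -0.10 (adjusted p = 0.452) and 0.08 (adjusted p = 0.229, both by limma). DMRTA1, the next gene beyond CDKN2B, had a log2 change of 0.06 (adjusted p = 0.693), and MIR31, the nearest measured gene on the other side of MTAP, one of -0.15 (adjusted p = 0.284, both by limma).

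Genes of the proteins that these inhibitors act on were mostly lower after treatment. Among 15 CDK, cyclin, pocket protein and clamp genes, 11 fell, 3 rose and CCNE1 alone missed the threshold, at a median of -0.71 on the log2 scale. The share called was 93.3%, against 69.5% of the genes above background. CCNA2 and CCNB1, the cyclins of S phase and mitosis, had log2 changes of -6.99 and -5.62 (adjusted p = 6.29e-09 each by limma). CDK1, the mitotic kinase, gave 4.71, 4.97 and 4.96 in treated cells and 10.75, 10.86 and 11.12 in control cells, so its treated values were below the background limit and the size of its fall is uncertain. CDK2, the main partner of CDKN1A and CDKN1B, gave 8.52, 8.28 and 8.27 in treated cells and 11.12, 11.15 and 11.22 in control cells. PCNA fell by 2.21 and the pocket protein gene RBL1 fell by 3.34.

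Among the direct partners of INK4 proteins, CDK4 fell by 0.46 on the log2 scale. The D-type cyclin genes CCND1 and CCND3 had log2 changes of -0.71 and -0.67, and RB1, the substrate of CDK4, fell by 0.63. CDK6 rose by 0.31, with 8.37, 8.48 and 8.41 in treated cells and 8.10, 8.08 and 8.16 in control cells. The pocket protein gene RBL2 rose by 0.65. CCND2 was called higher by 0.21 at background in both groups. CCNE1, the cyclin E1 gene, was not called (log2 change 0.09, adjusted p = 0.358 by limma).

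Genes that control the stability of p21 and p27 were mostly lower. In that list 14 genes were measured, of which 9 fell and 2 rose, and the median log2 change was -0.57. That is 78.6% called, against 69.5% of the genes above background. SKP2, the receptor that marks p27 for destruction, gave 8.58, 8.53 and 8.49 in treated cells and 10.86, 10.93 and 10.97 in control cells, a log2 change of -2.39 (SE 0.05; limma adjusted p = 7.85e-08). Its cofactor gene CKS1B had a log2 change of -1.54, and the related CKS2 one of -3.28. DTL, the receptor that marks p21 during DNA synthesis, fell by 5.33, to a mean of 5.69 in treated cells, near the background limit, against 11.02 in control cells. CDC20 and CCNF, which encode other ubiquitin ligase receptors, had log2 changes of -4.47 and -1.82. CDC34, a ubiquitin-conjugating enzyme gene, and FBXL12, an F-box gene, rose by 0.74 and 0.41. Core genes of these ligases were mixed. SKP1, CUL1 and DDB1 were the 3 genes of the list not called, at log2 changes of -0.01, -0.02 and 0.03. The cullin genes CUL4B and CUL4A were called lower, at log2 changes of -0.94 and -0.17 (adjusted p = 2.07e-06 and 0.0142 by limma).

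Of 24 listed transcription regulators of CDK inhibitor genes and their controllers, 20 were measured. In these 11 rose, 6 fell and 3 missed the threshold, at a median of 0.21 on the log2 scale. The share called was 85.0%, against 69.5% of the genes above background and 45.6% of all genes. MDM2, a ubiquitin ligase gene, and its relative MDM4 rose by 2.74 and 1.24, FOXO3, a known activator of CDKN1B, by 1.54, MYC by 0.80 and SMAD4 by 0.38. Log2 changes were -2.51 for E2F1, the factor held back by RB proteins, -3.16 for ID1, an inhibitor of differentiation, -1.37 for SMAD3, -0.86 for KLF6 and -0.64 for EZH2, a Polycomb methyltransferase gene known to silence CDKN2A. MDM2 was at 14.69, 14.70 and 14.72 in treated cells and 12.04, 11.91 and 11.93 in control cells.

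The other genes of the route in which MTAP works were nearly all above background. Of 20 genes for methionine salvage, polyamine metabolism and MTAP-linked methylation, all had a row, and MAT1A alone was at background in both groups. In this list 5 rose, 11 fell and 4 missed the threshold, at a median of -0.18 on the log2 scale, so 80.0% were called, against 69.5% of the genes above background and 45.6% of all genes. SAT1, the enzyme that acetylates polyamines for export, gave 11.68, 11.54 and 11.62 in treated cells and 8.77, 8.89 and 8.87 in control cells, a rise of 2.77 (SE 0.06; limma adjusted p = 7.80e-08). ODC1, the first enzyme of polyamine synthesis, rose by 0.91, the aspartate transaminase gene GOT1 by 1.88, the amino acid carrier gene SLC43A2 by 1.61 and MAT2B by 0.33. AMD1 and SMS, enzymes whose route yields methylthioadenosine, had log2 changes of -0.94 and -0.67, and SRM was not called (log2 change 0.02, adjusted p = 0.732 by limma). ADI1, a later enzyme of methionine salvage, fell by 0.74, and APRT, which recycles the adenine that MTAP releases, fell by 1.14. PRMT5, the methyltransferase that methylthioadenosine inhibits, was not called (log2 change 0.08, adjusted p = 0.207 by limma), whereas its partner WDR77 fell by 1.04.

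**Figure D4:**
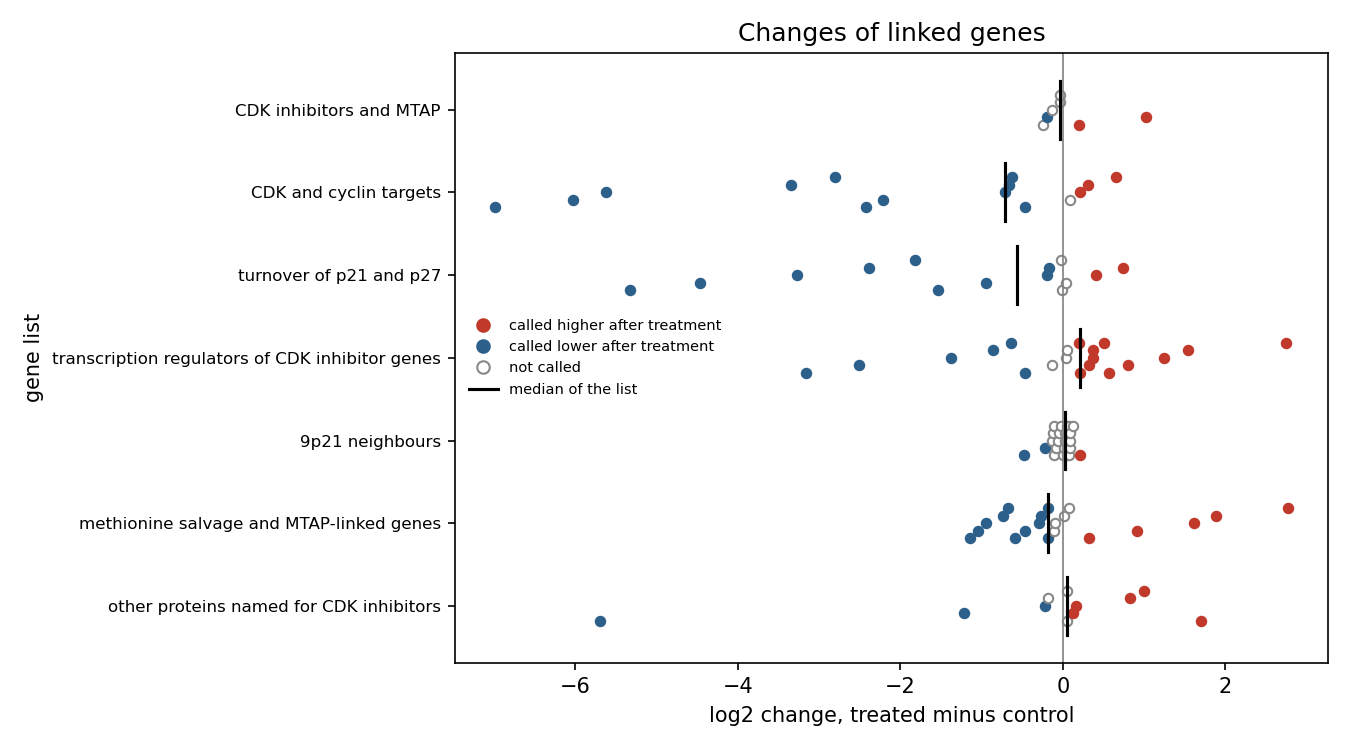
Log2 change (treated minus control) of each measured gene, one row for the CDK inhibitors with MTAP and one for each list of linked genes, red where called higher, blue where called lower and open where not called, with a black bar at the list's median. The medians are -0.04 for the inhibitors with MTAP, -0.71 for the CDK and cyclin targets, -0.57 for the turnover genes, 0.21 for the transcription regulators, 0.03 for the 9p21 neighbours, -0.18 for the salvage genes and 0.06 for other proteins named for CDK inhibitors.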

How the data were processed

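Total RNA (100 ng, integrity number above 8) of 6 samples was labelled for Affymetrix whole-transcript arrays, per the labels' protocols. The authors deposited a table of log2 signals, 1 for each transcript cluster and array. The submitters' processing notes name RMA and Transcriptome Analysis Console 4.0.1.36. No genome build is given in the sources used here. RMA brings all arrays to 1 distribution, which hides any difference in RNA content between cells. Between 181 and 196 values per array exceeded 16, up to 19.46, which a scanner reading cannot reach, so the log2 scale may be stretched and sizes of change with it.

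Of 67528 rows, 23781 had 1 symbol, updated to RefSeq GRCh38.p14, which gave 22411 genes after keeping the highest-mean row. The comparison used lmFit and eBayes of limma 3.58.1 (R 4.3.3), with no level filter. Data were simulated for these 22411 genes with 50 genes changed at each size. In them 22% of genes changed by 0.25 on the log2 scale were recovered, 68% at 0.5, 96% at 1 and 98% at 2. Far more genes, 10212, were called in the real data. The adjusted p was thus stricter in the simulation, and these rates need not hold for the real data. Precision is limited by the number of arrays. Members and lists were chosen with earlier results of these data known. Named from each list were up to 5 called genes per direction with the smallest adjusted p, and other genes were chosen after their values were seen. Other settings changed the arrays used, the replicate block, the choice of rows, the scaling, the variance model, array weights and the background limit. Figures were drawn with matplotlib 3.10.9.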

Additional observations from a re-analysis of the deposited data

How the results depend on the processing

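The rise of CDKN1A was called under all 15 alternatives, and CDKN1C, CDKN2A and CDKN2B were not called under any of their 14. Among these alternatives, scaling to a highest value of 16 cannot change a call. Averaging a gene's rows left the values of these genes the same, as none has a second row. Same-numbered arrays did not deviate together (correlations of -0.08, 0.04 and -0.05), so no pairing by number was seen. The labels do not say whether same-numbered arrays share a culture or a day. With the replicate block, 1 member was called higher and 0 lower, as CDKN1B (0.19, adjusted p = 0.0524 by limma) and CDKN2D (-0.19, adjusted p = 0.0956) lost their calls; the block also gave 0 higher and 1 lower among the 9p21 neighbours and 3 higher among the other proteins named for CDK inhibitors. With all rows tested, 17201 rows were called against 10212 genes, with 1 member higher and 0 lower (CDKN1B 0.19, adjusted p = 0.0717; CDKN2D -0.19, adjusted p = 0.103, by limma). CDKN2D was lost on median centring (-0.17, 0 members lower) and on repeated quantile normalization (-0.15, 0 members lower). Leaving out 1 array gave 1 to 2 members higher and 0 to 1 lower, with log2 changes of 0.15 to 0.23 for CDKN1B, -0.24 to -0.14 for CDKN2D and -0.36 to -0.14 for MTAP. The other row of MTAP, added after the data were seen, gave 0.13. The 90th percentile of olfactory receptor genes left 1 member, CDKN2B, at background in both groups in place of 4. The same limit gave a run of 0 genes around CDKN2A in place of 34, a value added after the data were seen. Apart from these counts at background, which follow from the lower limit, the cause was not tested. Low signal over background limits what can be said of CDKN1C, CDKN2A, CDKN2B and MTAP.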

Other observations

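Genes of other proteins that are named for binding or restraining CDKs were 11 in all, of which 5 rose and 3 fell. The 72.7% called is near the 69.5% of the genes above background and higher than the 45.6% of all genes. CDKN3, which encodes a phosphatase that acts on CDK2 and is no member of the CIP/KIP or INK4 families, gave 8.12, 7.89 and 8.02 in treated cells and 13.70, 13.64 and 13.76 in control cells, a log2 change of -5.69 (SE 0.07; limma adjusted p = 1.09e-08). CDK2AP2, a relative of the CDK2-binding protein gene CDK2AP1, rose by 1.70, and HEXIM1, which encodes an inhibitor of the transcription kinase CDK9, by 1.00. CDKN2AIP, the gene of a protein that binds ARF, rose by 0.83, whereas its relative CDKN2AIPNL fell by 1.22 and CDK2AP1 fell by 0.22. CABLES2 and CDK5RAP1 rose by 0.13 and 0.16 (adjusted p = 0.0403 and 0.0492 by limma). Only 3 genes of the list were called higher with all rows tested, or without treated replicate 2, treated replicate 3, control replicate 2 or control replicate 3.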
